A study of Saccharomyces cerevisiae with 18 samples.

Results

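The subtelomeric genes of Saccharomyces cerevisiae described here are those within 20 kb of a chromosome end. Reads had been counted in windows that each cover a gene and 250 bp downstream of it. A nuclear window was taken when its far edge lay at most 20 kb from the outermost window edge on that side of its chromosome, on any of the 32 ends of the 16 nuclear chromosomes. This gave 249 windows, from which the choice left out 5 named genes (HXK1, ADH4, YLR460C, PHO11 and PHO12) and 13 windows with more than 50% multimapped reads. The remaining 231 of 6465 S. cerevisiae windows, 6419 of them nuclear, held 222 protein-coding genes, 8 pseudogenes and 1 tRNA gene. MRC1 lay just inside the limit at 19981 bp and YPR195C just outside at 20237 bp.

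Subtelomeres carry gene families that differ in copy number between strains and serve sugar use, vitamin synthesis, metal uptake and the cell wall. Their genes are known to be weakly transcribed. Near telomeres the Sir2, Sir3 and Sir4 proteins, recruited through Rap1 and the Ku complex, deacetylate histones and spread inward. Bdf1, a bromodomain protein that binds acetylated histone H4 and works with the general factor TFIID, is known to limit that spread, and Bdf2 is its partly redundant paralogue.

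The data are 3′ mRNA-seq libraries with metabolic labelling (SLAM-seq), 3 biological replicates in each of 6 groups. Strain RDY73 carries BDF1-3XV5-mAID-URA3 and BDF2-3XV5-mAID-kanMX, which are fusions to an auxin degron, and pGPD1-OsTIR1::HIS3, the receptor that lets auxin (IAA) trigger their degradation. Strain RDY234 carries the same 3 alleles plus pBDF1-BDF1::TRP1, an untagged BDF1 copy. In each strain the IAA group received 1 mM IAA for 25 min and then 5 mM 4-thiouracil (4tU) for 4 min, the DMSO group received 4tU without IAA, and the control group received neither. The sample titles name DMSO for the DMSO group alone and do not say whether the control cultures received it. All cells grew in glucose-rich YPD medium, and every culture carried both degron fusions and OsTIR1. Degradation acts on the protein, so the mRNA files do not check it.

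4tU leaves T-to-C conversions in reads; new RNA is the count of reads that carry 2 or more of them, and total RNA is all reads. Both were scaled to the matching reads from Schizosaccharomyces pombe cells added by mass at 1 part to 19, so that a scaled read is comparable between libraries. A lower scaled level can reflect fewer S. cerevisiae cells or less RNA per cell, and the 2 cannot be told apart. Per library there were 4177363 to 8541751 S. cerevisiae reads, with 103348 to 574103 of them labelled in the 12 libraries that received 4tU. Without 4tU the labelled share of all reads was 0.186% to 0.403%, which is the background of the labelling measure. Of the 231 genes, 53 reached 10 labelled reads in at least 3 libraries and were tested for new RNA, and 123 reached 10 total reads in at least 3 libraries and were tested for total RNA. Many of them reached those minimums through RDY234, whose scaled levels were higher, so the tested genes do not stand for all 231. Levels of different genes are compared as reads of 3′-end libraries, in which a transcript gives reads near its end whatever its length, with no correction for length. The set made up 0.281% of all S. cerevisiae reads in RDY73 DMSO libraries.

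The subtelomeric genes were weakly expressed. Their median total RNA over the 18 libraries was 6.66 scaled reads against 164 for all nuclear windows, and 130 of them (56.3%) had under 10 scaled reads against 8.12% of all nuclear windows. In 8 genes no library had a read. Only 36 genes had 100 scaled reads or more and 3 had 1000 or more, and the 10 highest held 50.9% of all reads of the set.

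Levels rose with distance from the end. In RDY73 DMSO libraries the median was 0.647 scaled total reads in the 45 genes within 5 kb, 2.66 in the 62 genes at 5 to 10 kb, 6.48 in the 62 genes at 10 to 15 kb and 31.3 in the 62 genes at 15 to 20 kb. Beyond the set it was 48.7 in the 144 windows at 20 to 30 kb and 151 in the 5708 windows beyond 50 kb. These medians describe genes that differ in much besides their position, and no test was made of them.

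**Figure D1:**
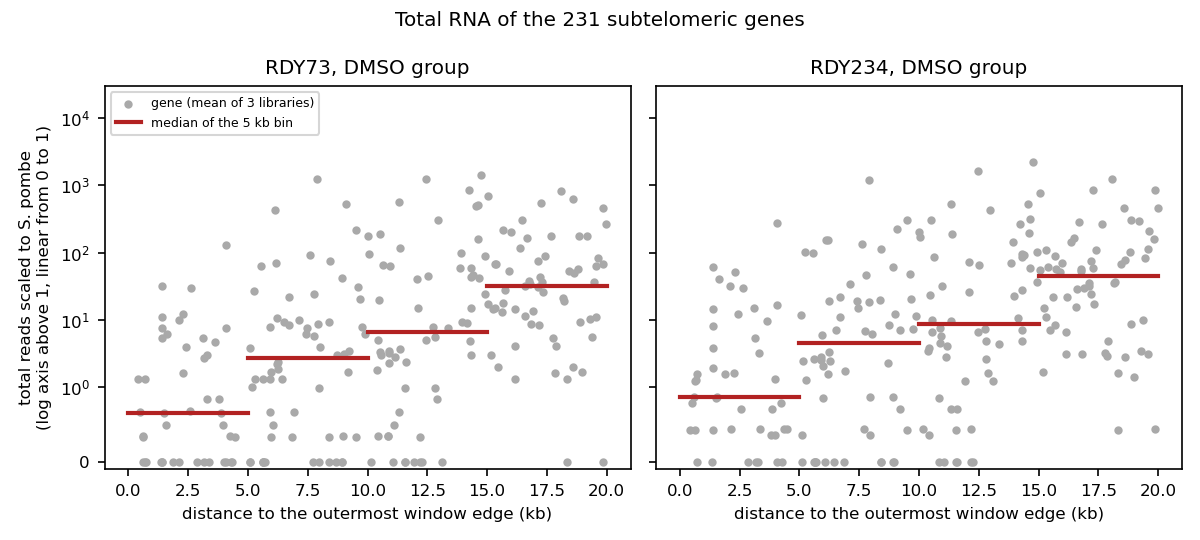
Mean scaled total reads (vertical axis, logarithmic above 1) of the 231 subtelomeric genes against the distance from the outermost window edge to the far edge of the gene (horizontal axis, kb) in the DMSO groups of both strains, each point a mean of 3 libraries. The red 5 kb medians climb from 0.647 to 31.3 in RDY73, while single genes in every bin span several powers of 10.

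The genes with the highest total RNA in RDY73 DMSO libraries were mostly metabolic enzymes. CHA1, the serine and threonine deaminase, had 1429 ± 150 scaled reads (SD, n = 3). ADH6, an NADPH-dependent alcohol dehydrogenase, had 1250 ± 171, and IMD2, an inosine monophosphate dehydrogenase of guanine nucleotide synthesis, had 1224 ± 202. These 3 do not differ beyond their spread. MAL12, a maltase, had 863 ± 66.9 and DLD3, a D-lactate dehydrogenase, had 818 ± 79.3. HYR1, a peroxidase that senses hydrogen peroxide, had 701 ± 50.0. The Ty1 open reading frame YHR214C-B had 626 ± 162, but it overlaps another window and has many near-identical copies, so its reads are of uncertain origin. The uncharacterized YML131W had 557 ± 69.6.

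Most of the families described here had low medians. Reads that match several near-identical copies can be lost or assigned to the wrong one, so low counts there are of uncertain meaning, and how much of each window can be matched uniquely was not tested. The 19 seripauperins and related cell-wall proteins, which are induced without oxygen in this species, had a median of 0.338 scaled total reads, and 6 of them could be tested. The 7 helicase genes of the telomeric Y′ elements that carry a YRF1 symbol had a median of 0 and none of them could be tested. A further 8 Y′ helicase genes without a symbol are counted among the genes with no symbol. One of these, YEL077C, could be tested, for total RNA alone, and its window overlaps another. The 11 COS genes, which act in sorting of membrane proteins, had a median of 30.7 and 9 were testable for total RNA. The 12 genes of sugar uptake and breakdown had a median of 2.74, with 5 testable, all of them MAL genes.

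Subtelomeric genes differed widely in how much of their RNA was new. Among windows with at least 200 total reads in the RDY73 DMSO group, the median labelled share was 6.39% over 36 subtelomeric genes and 8.77% over 4404 windows. At the top stood YML131W, with 339 of 1498 reads labelled (22.6%, exact 95% binomial interval 20.5% to 24.8%), and VAC17, the adaptor that carries the vacuole along actin, with 87 of 435. Total RNA of YML131W was itself higher with 4tU than in the RDY73 control (log2 1.26), so its share does not describe its RNA without 4tU. The window of YML131W held 33.0% T and that of VAC17 28.8%. At the bottom stood genes with abundant total RNA and hardly any label. MAL12 had 7 of 2316 reads labelled (0.302%, interval 0.122% to 0.622%), beside 3 of 2799 in the unlabelled control libraries. THI12, of the thiamine precursor family, had 1 of 542 labelled beside 5 of 568 in the control. PHO89, a sodium and phosphate cotransporter, had 0 of 232, which allows a share of up to 1.29% by the limit of 3 counts and 1.58% by the exact interval. For these 3 genes the label was not separated from the background. Their windows held 28.6% to 34.0% T, beside a median of 28.7% over the 4404 windows. Reads of 3′-end libraries cover only part of a window, and whether T content bears on the shares was not tested. THI12 is 98.5% identical to THI11, which had 11 of 590 reads labelled in RDY73 DMSO. MAL12 is 99.5% identical to MAL32, which had 11 of 1127. Reads may be assigned to the wrong copy, so the shares of single copies are uncertain. Reads were not collapsed to molecules here, and the intervals cover counting error only.

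Labelled shares also differed widely in RDY234, where the median was 12.9% over 48 subtelomeric genes and 14.7% over 4902 windows. There MAL12 had 10 of 692 reads labelled (1.45%) and HYR1 had 53 of 1941 (2.73%), while YKL222C, a putative transcription factor 4.06 kb from its end, had 214 of 695 (30.8%). The summed labelled share of the set was 7.92% ± 0.0659 in RDY73 DMSO and 13.8% ± 0.735 in RDY234 DMSO (SD, n = 3), beside 4.08% and 7.29% over all S. cerevisiae reads. Summed shares weight each gene by its reads, and by the medians given above the set lay below all windows in both strains. The unlabelled controls of the set gave 0.371% and 0.482%.

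After IAA in RDY73, which asks what rapid loss of both Bdf proteins does, new RNA of the set fell together with that of most genes. Summed labelled reads of the set were 1356 ± 95.6 in DMSO and 609 ± 47.2 in IAA (scaled reads, SD, n = 3), and the groups did not overlap. Of the 53 tested genes, 32 fell and 0 rose (edgeR quasi-likelihood test, Benjamini-Hochberg adjusted over all 5195 windows), where 83.9% of all tested windows fell and 0.385% rose. DESeq2 also gave 32 lower and 0 higher, and no further gene was higher at an unadjusted p under 0.05. The median log2 change was -1.74 in the set and -1.97 over all tested windows. When the 6 RDY73 libraries were fitted alone, 23 genes could be tested and 18 fell, where 84.5% of all windows did. The other genes of the 53 met the read minimum only with RDY234 libraries counted, and whether the set differs from other windows was not tested.

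The share of calls varied with read number. Among genes with a mean under 10 labelled reads 7 of 19 fell, where 59.4% of all such windows did. At 10 to 20 labelled reads 8 of 13 fell, where 82.2% did, and at 20 to 50 labelled reads 9 of 13, where 89.6% did. At 50 labelled reads or more 8 of 8 fell, where 87.0% did, with a median log2 change of -0.83 against -1.43. By distance, 2 of 2 tested genes fell within 5 kb, 3 of 9 at 5 to 10 kb, 13 of 17 at 10 to 15 kb and 14 of 25 at 15 to 20 kb. Over all tested windows the share was 83.9%. The 2 within 5 kb were YKL222C and AAD3, and the call of AAD3 rests on 7 reads in RDY73 DMSO replicate C. Within 10 kb of an end 11 genes were tested, too few to describe the zone next to the telomere.

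**Figure D2:**
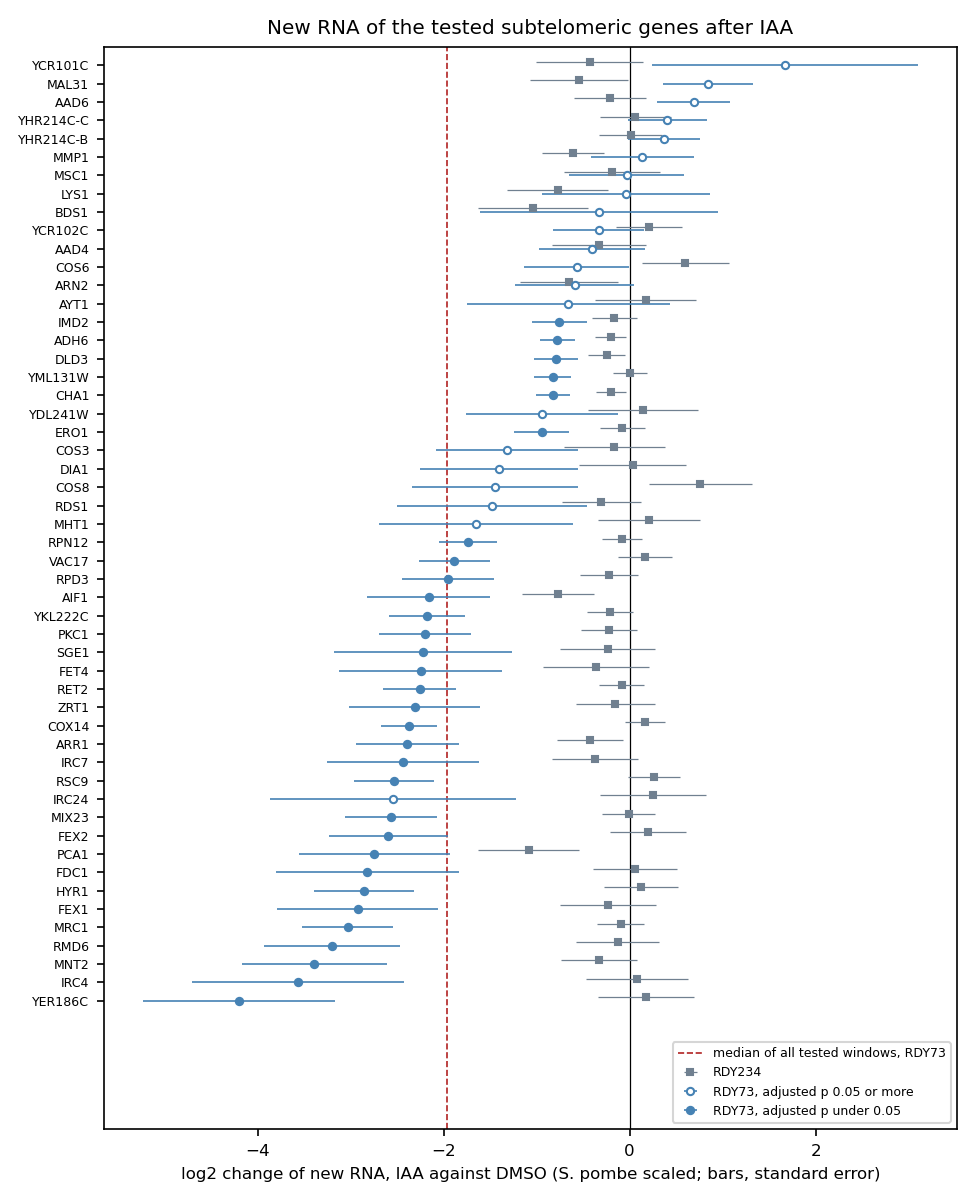
Log2 change of new RNA between IAA and DMSO (horizontal axis, S. pombe scaled, bars are standard errors, 3 libraries in each group) for each tested subtelomeric gene in RDY73 (blue, filled where the adjusted p is under 0.05) and RDY234 (grey). AAD3, with no labelled read in RDY73 IAA libraries, is left out. RDY73 points run from -4.20 to 1.67 around the median of all windows at -1.97 (red), and the highest of them are open.

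The genes that fell most, among those whose DMSO and IAA libraries did not overlap, came from many ends and functions. YER186C, uncharacterized, had 14.7, 4.57 and 3.13 scaled labelled reads in DMSO and 0, 0.836 and 0 in IAA, with a single read in the IAA libraries. Its ratio of DMSO to IAA was 25.9, with an exact 95% counting interval of 4.14 to 1074. MNT2, a mannosyltransferase of O-linked glycans, had 27 labelled reads in DMSO and 3 in IAA, a ratio of 11.7 (interval 3.59 to 60.0). In both genes every DMSO library was above every IAA library, as this choice required. Groups that do not overlap were found in 28 of 53 tested genes and in 4142 of 5195 windows.

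MRC1, a mediator of the replication checkpoint, had 16.8, 24.4 and 28.1 scaled labelled reads in DMSO and 2.04, 2.51 and 3.48 in IAA, a log2 change of -3.03 ± 0.49 (SE, edgeR adjusted p = 3.71e-09). RSC9, a subunit of the RSC chromatin remodeller, went from 38.9, 28.9 and 17.7 to 4.09, 4.18 and 6.09 (log2 -2.54 ± 0.43, edgeR adjusted p = 2.15e-08). The groups of both genes are far apart. MIX23, a protein of the mitochondrial intermembrane space, fell by 2.56. RMD6, of sporulation, had a log2 change of -3.20 that ran from -6.58 to -2.64 when single libraries were left out, since its 4 IAA reads were all in replicate B. MRC1 is the only one of the 53 genes that was also lower when libraries were scaled to S. cerevisiae reads.

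Ion exporters in this list were FEX1 and FEX2, which export fluoride, and PCA1, a cadmium-exporting ATPase. FEX2 had 16.8, 15.2 and 8.34 scaled labelled reads in DMSO and 1.02, 1.67 and 3.48 in IAA, a log2 change of -2.60 ± 0.64 (SE). FEX1 had 20 labelled reads in DMSO and 3 in IAA, a ratio of 8.64 (interval 2.56 to 45.4). The 2 genes are 99.3% identical over their length, so single reads may be assigned to the wrong copy. The fall of PCA1 by 2.75 had an adjusted p of 0.00113 with edgeR and 0.108 without RDY73 DMSO replicate C, which held 16 of its 23 DMSO reads.

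HYR1 and RMD6 changed far more in new than in total RNA. HYR1's labelled reads were 40.0, 16.7 and 10.4 in DMSO and 4.09, 0.836 and 4.35 in IAA (log2 -2.86 ± 0.54, edgeR adjusted p = 3.82e-07). Its total RNA moved from 701 ± 50.0 to 476 ± 35.5 (log2 -0.56 ± 0.13, edgeR adjusted p = 0.000101). RMD6 had 7.37, 10.7 and 17.7 scaled labelled reads in DMSO and 0, 3.34 and 0 in IAA, and a log2 change in total RNA of -0.48 with an edgeR adjusted p of 0.12. In MRC1, MIX23, RSC9 and FEX2 total RNA fell by 1.86 to 1.92 on the log2 scale.

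Several of the best-read genes fell little. CHA1 had 147, 184 and 150 scaled labelled reads in DMSO and 96.0, 74.4 and 100.0 in IAA, a log2 change of -0.83 ± 0.18 (SE, edgeR adjusted p = 1.33e-05). ADH6 (-0.78), DLD3 (-0.79), YML131W (-0.83), IMD2 (-0.76) and ERO1 (-0.95), the thiol oxidase of the endoplasmic reticulum, fell by similar amounts. All 6 changes are smaller than the median fall over all windows, and than the median of -1.43 over windows with a mean of at least 50 labelled reads. Not every well-read gene fell little: COX14, with 155 labelled reads in DMSO and 39 in IAA, changed by -2.37. With S. cerevisiae scaling the 6 genes that fell little were all called higher, ADH6 at 0.94 and IMD2 at 0.96, since that scaling moves the median of all windows from -1.97 to -0.29. In all, 13 of the 53 genes were higher and 1 was lower under it, where 16.3% of all windows were higher and 11.5% lower.

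A few genes kept or exceeded their DMSO level of new RNA without passing the test. AAD6, an aryl-alcohol dehydrogenase pseudogene, had 12.6, 28.9 and 8.34 scaled labelled reads in DMSO and 26.6, 23.4 and 26.1 in IAA (log2 0.69 ± 0.40, edgeR adjusted p = 0.095). MAL31, a maltose permease, had 16.8, 4.57 and 8.34 in DMSO and 8.17, 25.9 and 20.9 in IAA (log2 0.84 ± 0.48, edgeR adjusted p = 0.0936). The groups of both genes overlap. AAD6 was called higher without RDY73 DMSO replicate B (1.26, adjusted p = 0.0109) and MAL31 without RDY73 DMSO replicate A (1.45, adjusted p = 0.0227) or IAA replicate A (1.17, adjusted p = 0.0254), all with edgeR. With all libraries, AAD6 was also called higher when reads with at least 1 conversion were counted (0.71, edgeR adjusted p = 0.0295). Both were higher under S. cerevisiae scaling, at 2.41 and 2.52. The largest positive value, 1.67 for YCR101C, rests on 1 labelled read in DMSO and 5 in IAA.

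The families had few tested genes each, and differences between them were not tested. None of 3 COS genes passed, with COS6 at -0.57 ± 0.57, COS3 at -1.32 ± 0.76 and COS8 at -1.45 ± 0.89 (log2, SE). When reads with at least 1 conversion were counted, COS3 (-1.13, adjusted p = 0.0275) and COS8 (-1.49, adjusted p = 0.00431) passed edgeR's test. Of the 3 aryl-alcohol dehydrogenases AAD3 passed, on its single library with reads, AAD4 was at -0.40 ± 0.57 and AAD6 is given above. Of the 3 tested genes on the list of metal and siderophore genes, which was drawn up by symbol and does not hold PCA1, ZRT1 or the FEX genes, 2 fell. They were the metal transporter FET4 (-2.25) and ARR1, the activator of arsenic resistance (-2.39), whose window overlaps another. The third, ARN2, a siderophore transporter, was at -0.59 ± 0.64, and at -0.81 with an edgeR adjusted p of 0.0175 when at least 1 conversion was required. The drug transporter SGE1 fell by 2.22, with an adjusted p of 0.0246, or 0.291 without RDY73 DMSO replicate A (edgeR). Of the genes with no symbol, 3 of 8 fell, and YKL222C did so by 2.18 ± 0.41 from 25.3, 33.5 and 21.9 to 4.09, 4.18 and 8.70 scaled labelled reads. COX14, an assembly factor of cytochrome c oxidase, fell by 2.37 ± 0.30.

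In RDY234 none of the 53 tested genes passed the test for new RNA after IAA. Of them 0 fell and 0 rose with edgeR or with DESeq2, 2 were lower at an unadjusted p under 0.05, and over all windows 0.0192% fell and 0.0192% rose. The median log2 change was -0.17, and summed labelled reads were 2574 ± 119 in DMSO and 2347 ± 117 in IAA (scaled, SD, n = 3), with ranges of 2441 to 2671 and 2256 to 2479 that overlap. PCA1 had 44 labelled reads in DMSO and 26 in IAA, a ratio of 2.17 (exact 95% counting interval 1.31 to 3.67), and its log2 change of -1.09 ± 0.54 had an edgeR adjusted p of 0.977.

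The difference between the strains in the IAA effect was tested directly as an interaction. It was lower in RDY73 for 27 of 53 genes and higher for 0, where 74.2% of all windows were lower and 0.231% higher (edgeR), and DESeq2 gave the same counts. Scaled to S. cerevisiae reads, 1 was lower and 10 were higher, where 6.68% and 11.6% of all windows were. YER186C had a difference of -4.37 ± 1.18 (log2, SE, adjusted p = 0.000588), RMD6 of -3.07 ± 0.88 (adjusted p = 0.00111; -6.45 to -2.51 when single libraries were left out) and IRC4 of -3.65 ± 1.28 (adjusted p = 0.00778), in edgeR's test. The call of IRC4, a gene whose loss raises recombination foci, ended without RDY73 DMSO replicate A (-2.66, edgeR adjusted p = 0.11). AAD3 had 0, 0 and 7 labelled reads in RDY73 DMSO, 0 in all 3 IAA libraries, 33 over RDY234 DMSO and 37 over RDY234 IAA. Its fitted difference of -4.26 rests on 1 library and is not used as a size. YER186C, RMD6, IRC4 and AAD3 met the read minimum only with RDY234 libraries counted, which held more of their labelled reads. Their differences are therefore not independent of that filter.

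Total RNA after IAA in RDY73 fell less than new RNA, in the set as in all windows. Summed total reads of the set were 16420 ± 1459 in DMSO and 11231 ± 1238 in IAA (scaled, SD, n = 3). Of 123 tested genes 63 fell and 0 rose, where 77.9% of all windows fell and 1.16% rose (edgeR), with a median of -0.84 against -1.24 over all windows. DESeq2 gave the same counts, and 0 genes were higher at an unadjusted p under 0.05. With S. cerevisiae scaling, which moved the median of all windows to -0.10, 15 genes were lower and 34 higher, where 30.8% and 29.6% of all windows were.

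YOL159C-A, uncharacterized, fell most: 26.4, 23.8 and 23.3 scaled total reads in DMSO became 0.992, 5.09 and 0.846 (log2 -3.31 ± 0.51, edgeR adjusted p = 1.33e-07). IRC4 changed by -2.50 ± 0.48, PDR18, a drug transporter of the ABC family, by -2.48 ± 0.52, and YHL042W, of the DUP380 family, by -2.42 ± 0.55, all called lower. The IAA libraries of these 4 genes all lie below the DMSO libraries, since the rule for naming them required groups that do not overlap. Such groups were found in 62 of 123 tested genes and in 4835 of 6100 windows. In the abundant genes the falls were small, from -0.36 in YML131W to -0.56 in HYR1, and the values for IMD2 (-0.25, adjusted p = 0.0983) and MAL12 (-0.29, adjusted p = 0.229) did not pass edgeR's test. The call of YML131W ended without RDY73 DMSO replicate A (adjusted p = 0.146) or IAA replicate A (adjusted p = 0.06) in edgeR, and that of IMD2 appeared without DMSO replicate C (-0.34) or IAA replicate B (-0.41). CHA1, ADH6, IMD2, MAL12, DLD3, HYR1 and YML131W turned positive under S. cerevisiae scaling, at 0.60 to 0.90. Of the 6 thiamine and other vitamin genes tested none passed, and 1 of 5 MAL genes did, MAL33, the MAL activator, which fell by 0.59 and was higher by 0.56 under S. cerevisiae scaling. In RDY234 total RNA of 0 of 123 genes fell or rose with either edgeR or DESeq2, 6 were lower at an unadjusted p under 0.05, and 0.0164% of all windows were called in each direction.

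Genes linked to subtelomeric silencing were listed by symbol to describe their mRNA, and their proteins were not measured. The list mixes factors with different roles, such as SIR2, SAS2, TUP1 and REB1, so it does not stand for 1 machinery. Of the 24 listed genes 22 fell in new RNA after IAA in RDY73 and 0 rose, with a median log2 change of -2.20. All 24 fell in total RNA, with a median of -1.63. Over all windows 83.9% fell in new and 77.9% in total RNA, with medians of -1.97 and -1.24. SIR3 fell by 2.85, SIR4 by 2.18 and RAP1 by 1.91 in new RNA, and SIR2 went from 17.2 ± 6.26 to 4.17 ± 1.67 scaled labelled reads (SD, n = 3). When scaled to S. cerevisiae reads, 3 of the 24 were lower and 1 higher in new RNA, while 18 were lower and 2 higher in total RNA, beside 11.5% and 16.3% of all windows in new and 30.8% and 29.6% in total RNA. Whether the list differs from other windows was not tested. RPD3, a histone deacetylase, is both on this list and among the subtelomeric genes, 19.2 kb from the left end of chromosome XIV.

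A few subtelomeric genes had more total RNA after the brief 4tU treatment, and none of those that passed the test had less. The comparison is of DMSO with control libraries, and the DMSO libraries also serve in the IAA comparison. If the control cultures had no DMSO, its effect and that of 4tU cannot be told apart. In RDY73 5 of 123 genes had more total RNA after 4tU and 0 had less, where 0.508% of all windows were higher and 0.148% lower. In RDY234 4 were higher and 0 lower, where 0.393% and 0.180% were (edgeR). The genes counted as higher include PAU3 and PAU4 in RDY73 and PAU4 in RDY234. Both PAU genes reached the read minimum only through libraries given 4tU, where they were high, so these counts are not independent of that filter. At an unadjusted p under 0.05, 2 genes were lower in RDY73 and 6 in RDY234, and DESeq2 gave 4 higher and 0 lower in each strain. In RDY73 6 were higher and 1 lower with S. cerevisiae scaling, where 0.721% and 0.361% of all windows were. The lower one was FEX1, with 77.0 ± 7.22 scaled total reads in the control and 43.9 ± 11.0 with 4tU (S. pombe scaled log2 -0.84, edgeR adjusted p = 0.12). Fitted without the other groups, FEX1 was called lower in RDY73 under S. pombe scaling too (edgeR adjusted p = 0.0226). The ratio of 4tU to control reads was 0.548 for FEX1 (exact 95% counting interval 0.435 to 0.688) and 0.774 for FEX2 (0.627 to 0.954) in RDY73. In RDY234 it was 0.639 for FEX1 (0.538 to 0.757) and 0.684 for FEX2 (0.581 to 0.805), and neither passed edgeR's test there (adjusted p = 0.283 and 0.354). FEX2 did not pass in RDY73 either (edgeR adjusted p = 0.997). These intervals pool the 3 libraries of a group and cover counting error only, not the spread between libraries. FEX1 and FEX2 are 99.3% identical and may exchange reads.

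YCR102C, of the quinone oxidoreductase family, was raised in both strains. It had 4.33, 3.14 and 7.96 scaled total reads in RDY73 control libraries and 29.4, 62.5 and 29.1 with 4tU (log2 2.89 ± 0.42, edgeR adjusted p = 7.71e-06). In RDY234 it went from 18.4, 12.6 and 7.92 to 72.9, 60.2 and 80.4 (log2 2.45 ± 0.33, edgeR adjusted p = 2.07e-06). Control and 4tU libraries do not overlap in either strain, which the rule for naming the gene required. Such groups were found in 15 of 123 tested genes in RDY73 and 17 in RDY234, where 754 and 658 of 6100 windows had them. YML131W, of the same reductase superfamily, rose from 232 ± 22.8 to 557 ± 69.6 in RDY73 (log2 1.26 ± 0.15, edgeR adjusted p = 4.87e-08) and from 256 ± 69.0 to 529 ± 53.8 in RDY234 (log2 1.05 ± 0.15, edgeR adjusted p = 4.90e-06).

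The seripauperin gene PAU4 had 0.866, 5.24 and 1.99 scaled total reads in RDY73 control libraries and 17.3, 11.9 and 13.6 with 4tU (log2 2.43 ± 0.61, edgeR adjusted p = 0.0376), and its change in RDY234 was 2.46 ± 0.61 (edgeR adjusted p = 0.039). PAU3 had 2 reads over the RDY73 control libraries and 24 with 4tU, a ratio of 13.9 (exact 95% counting interval 3.45 to 121). In RDY234 PAU3 had 5.84 ± 1.13 and 19.4 ± 7.94 scaled reads, a log2 change of 1.72 with an edgeR adjusted p of 0.133. PAU4 had 8 reads over the control libraries of each strain. Both PAU genes reached the minimum of 10 reads only through libraries given 4tU, where they were high, so their calls are not independent of that filter. With the compared groups fitted alone, neither was tested in RDY73, nor was PAU4 in RDY234. AAD6 rose in RDY73 by 1.08 ± 0.26 (adjusted p = 0.0263) and had 0.15 ± 0.25 in RDY234 (adjusted p = 1.00), and ADH6 passed in RDY234 at 0.52 ± 0.13 (adjusted p = 0.0441) with 0.40 ± 0.13 in RDY73 (adjusted p = 0.265), all by edgeR. Whether the strains differ in these responses was not tested.

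Much of the RNA of the PAU genes carried the label after 4 min. In RDY73 DMSO it was 13 of 24 reads of PAU3, 17 of 39 of PAU4 and 28 of 101 of YCR102C, where the set had 7.92%. In RDY234 DMSO it was 15 of 50, 18 of 38 and 74 of 176, where the set had 13.8%. These genes were named because they rose with 4tU, so their high labelled shares are not a separate finding. The calls of the PAU genes, AAD6 and ADH6 ended when single libraries were left out. In RDY73 that of PAU3 ended without control replicate B or C or DMSO replicate B or C, and with DESeq2 (adjusted p = 0.0848). That of PAU4 in RDY73 ended without control replicate A or C or any DMSO replicate, and that of AAD6 without any control replicate or DMSO replicate A or B. In RDY234 the call of PAU4 ended without any control replicate or DMSO replicate A or B, and under the replicate block (edgeR adjusted p = 0.0504). The call of ADH6 ended without control replicate B or C or DMSO replicate B or C, under the block (edgeR adjusted p = 0.0616) and when the compared groups were fitted alone (edgeR adjusted p = 0.123). Leaving out any one of the RDY73 control or DMSO libraries left 2 or 3 of the 5 genes, and leaving out RDY234 control replicate B, control replicate C or DMSO replicate B left 2 of the 4 in that strain. YCR102C and YML131W stayed called in every one of these fits.

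**Figure D3:**
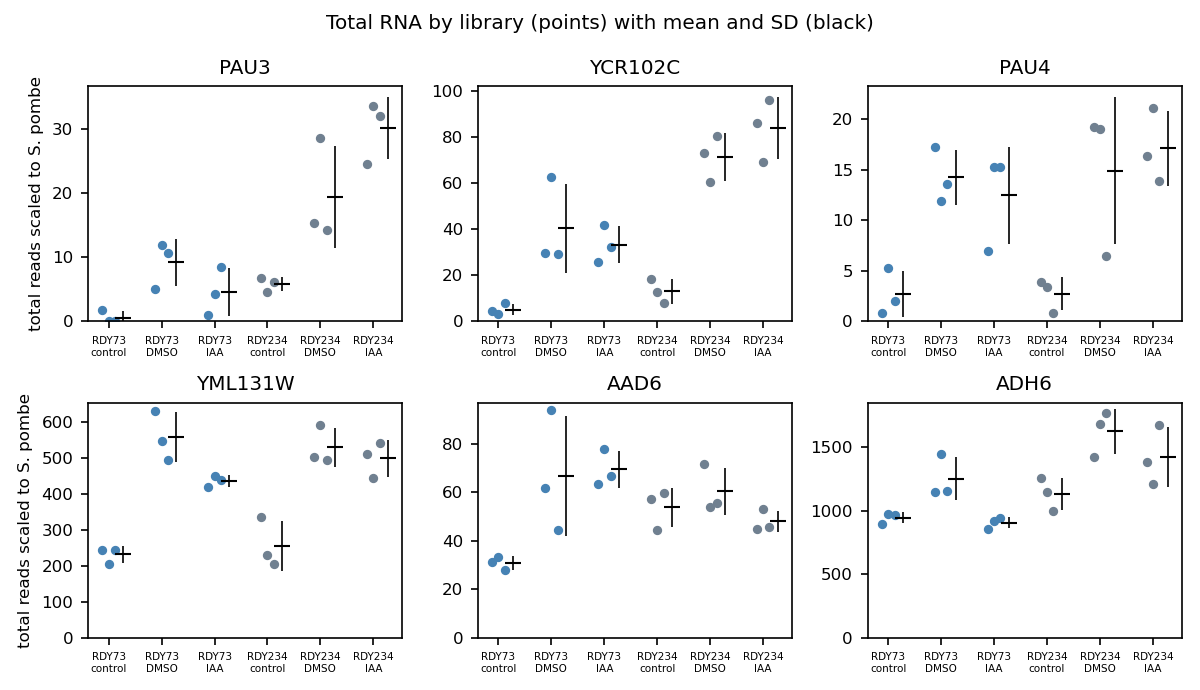
Scaled total reads (vertical axis, linear from 0) of the 6 subtelomeric genes that rose with 4tU in at least 1 strain, by library (points) in the control, DMSO and IAA groups of RDY73 (blue) and RDY234 (grey), with mean and SD of 3 libraries in black. Only the control groups lack 4tU; for YCR102C they lie at 3.14 to 18.4 and the other groups at 25.8 to 96.1.

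These genes include copies of one chromosome segment. YCR102C and PAU3 are neighbours at the right end of chromosome III, and YLR460C and PAU4 are neighbours in the same arrangement at the right end of chromosome XII. YLR460C is not counted in the set, being one of the 5 named genes left out, and rose from 12.4 ± 2.03 to 183 ± 32.7 scaled total reads in RDY73 (log2 3.87 ± 0.24, edgeR adjusted p = 5.93e-17). YCR102C and YLR460C are 94.0% identical over aligned bases of the genes and PAU3 and PAU4 are 85.7%. The DNA from 250 to 61 bases before each start codon is shown because aligned bases of each pair are mostly the same (R64 build, from RefSeq, written 5′ to 3′ on the gene's strand, from chrIII:305528-305717 minus strand, chrXII:1060948-1061137 minus strand, chrIII:307551-307740 plus strand and chrXII:1062669-1062858 plus strand in this order). Capitals mark TATAAA and TTACTAA.
YCR102C: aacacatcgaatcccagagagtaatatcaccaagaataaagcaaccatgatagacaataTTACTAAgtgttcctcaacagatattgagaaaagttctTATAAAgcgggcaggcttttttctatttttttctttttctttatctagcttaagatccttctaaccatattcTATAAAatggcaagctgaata
YLR460C: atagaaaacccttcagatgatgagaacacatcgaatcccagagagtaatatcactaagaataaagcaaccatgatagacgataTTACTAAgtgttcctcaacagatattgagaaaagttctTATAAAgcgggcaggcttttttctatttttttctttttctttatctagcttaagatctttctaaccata
PAU3: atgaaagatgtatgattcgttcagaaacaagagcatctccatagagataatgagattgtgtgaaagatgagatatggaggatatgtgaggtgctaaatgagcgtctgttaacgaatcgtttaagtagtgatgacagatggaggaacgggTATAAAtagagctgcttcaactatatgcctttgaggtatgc
PAU4: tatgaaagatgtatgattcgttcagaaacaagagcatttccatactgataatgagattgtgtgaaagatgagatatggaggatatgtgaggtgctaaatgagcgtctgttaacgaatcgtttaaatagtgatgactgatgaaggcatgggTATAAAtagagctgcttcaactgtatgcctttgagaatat

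Over aligned bases the shown stretches of YCR102C and YLR460C were 98.2% identical and those of PAU3 and PAU4 93.7%. The stretches of YCR102C and YLR460C are offset, with 163 identical, 3 different and 48 gapped positions, and the gaps are not counted in the 98.2%. TTACTAA, a recognition sequence of the oxidative stress activator Yap1, began 191 bases before the start of YCR102C and 167 before that of YLR460C, and it was not in the stretches of PAU3 and PAU4. This motif was looked for after the values were seen. On both strands from 250 bases before to 50 after the start it was in 9 of 222 subtelomeric promoters (4.05%) and in 7.44% of all 5995 nuclear protein-coding promoters.

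The promoters of the whole set held TATAAA, the TATA box, in 125 of 222 (56.3%), where 45.2% of all 5995 did. AGGGG, the stress response element, was in 20.7% of them and in 21.6% of all. TTAGGG, the core of the Tbf1 site, was in 4.95% against 6.86%. TTACCCG, the site of the general factor Reb1, was in 2 of 222 (0.901%) where 7.09% of all promoters held it. All motifs were searched on both strands, TTAGGG and AGGGG can share letters, and a match is not evidence that a factor binds.

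Total RNA also differed between the strains without IAA or 4tU, which compares the strain that has only degron-tagged Bdf1 with the one that has untagged Bdf1 as well. RDY73 was lower than RDY234 for 66 of 123 subtelomeric genes and higher for 10, where 77.5% of all windows were lower and 2.21% higher (edgeR). The median log2 difference was -0.72 in the set and -0.68 over all windows. With S. cerevisiae scaling, which moved the median of all windows to -0.02, 6 were lower and 18 higher, where 9.21% and 14.3% of all windows were. Which marker genes each strain carries differs with the untagged BDF1, and the 2 cannot be told apart.

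The genes higher in RDY73 came from few families. All 5 tested MAL genes were among them. MAL12 had 882, 839 and 974 scaled total reads in RDY73 and 370, 179 and 193 in RDY234 (log2 1.86 ± 0.24, edgeR adjusted p = 1.79e-08). MAL32, its maltase counterpart on chromosome II, had 403, 398 and 402 against 193, 98.5 and 121 (log2 1.54 ± 0.24, edgeR adjusted p = 5.51e-07). The strains do not overlap in either gene, which the rule for naming them required, although RDY234 libraries differ among themselves. Strains that do not overlap were found in 74 of 123 tested genes and in 4807 of 6100 windows. MAL12 and MAL32 are 99.5% identical and may exchange reads. MAL31 (0.99) and MAL11 (0.58), permeases that are 67.3% identical and so separable, and the activator MAL33 (0.82), were higher too.

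The thiamine precursor genes THI11 and THI12, 98.5% identical to each other, were the 2 of 6 vitamin genes that passed, at 1.14 ± 0.26 and 1.35 ± 0.29 (log2, SE). THI12 had 169, 181 and 199 scaled total reads in RDY73 and 98.8, 47.0 and 66.9 in RDY234. In RDY234 DMSO the same genes again ranged widely, MAL12 from 105 to 392 and THI12 from 23.3 to 100.4, with the lowest value of both in replicate C. The other genes higher in RDY73 were MSC1 (0.76), of meiotic recombination, and the Ty1 frames YHR214C-C (0.67) and YHR214C-B (0.42).

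Among the genes lower in RDY73, those at the right end of chromosome III stood at the low extreme, an observation made after the values were seen. All 8 of its tested genes, of 9 in the set, were lower, at -1.30 to -2.98 with a median of -1.77, against -0.68 over all windows. RDS1, a drug-response transcription factor, had 13.9, 38.8 and 11.9 scaled total reads in RDY73 and 107, 96.3 and 97.7 in RDY234 (log2 -2.24 ± 0.30, edgeR adjusted p = 3.84e-08). ADH7, an alcohol dehydrogenase paralogous to ADH6, had 2.60, 12.6 and 8.95 against 27.1, 29.8 and 35.2 (log2 -1.97 ± 0.47, edgeR adjusted p = 0.000276). The strains do not overlap in either gene, which the rule for naming them required.

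PAU3 had 2 reads over the RDY73 control libraries and 18 over those of RDY234, and AAD3 12.3 ± 10.3 scaled reads against 38.1 ± 10.3. The median of these 8 genes was -1.11 with S. cerevisiae scaling, and 2 of them remained called lower. IRC4 on chromosome IV (-1.88 ± 0.30) and YER188W on chromosome V (-2.19 ± 0.61) were lower to a similar extent. In contrast 3 of 8 tested genes were higher in RDY73 at the right end of chromosome II, all of them MAL genes. A difference between ends was not tested.

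**Figure D4:**
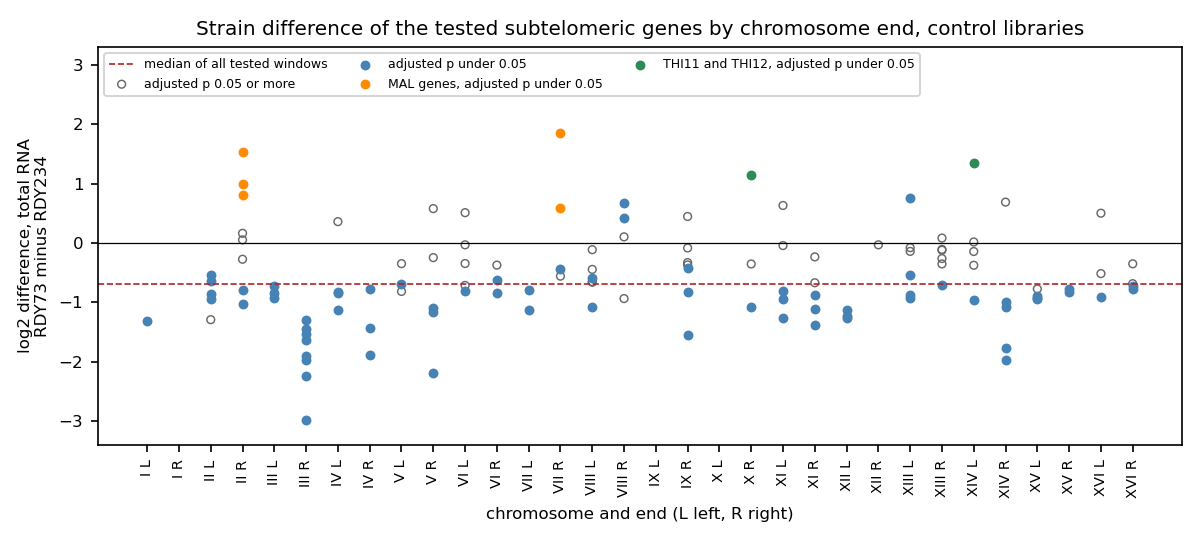
Log2 difference in total RNA between RDY73 and RDY234 control libraries (vertical axis, 3 libraries in each strain) for the 123 tested subtelomeric genes, grouped by chromosome end (horizontal axis). All 8 points at the right end of chromosome III lie at -1.30 or lower, while the MAL genes (orange) and THI11 and THI12 (green) lie at 0.58 or higher; the dashed line at -0.68 is the median of all windows.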

How the data were processed

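Per the labels' protocols, RNA was alkylated with iodoacetamide and made into 3′ mRNA-seq libraries; per the submitters' processing notes, reads were handled with fastp 0.23.2 and SLAM-DUNK 0.4.3, with builds R64 and ASM294v2. The authors deposited raw counts per gene window: all reads, and reads with at least 1 or at least 2 T-to-C conversions, in 18 libraries. The sources used here do not say whether counting used strand. The windows matched RefSeq genes of R64 by locus tag for 231 of 231 members.

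Each library was scaled by its summed S. pombe reads, labelled or total to match. New RNA was fitted over the 12 labelled and total RNA over all 18 libraries, with 1 coefficient for each group, by edgeR 4.0.16 (R 4.3.3, quasi-likelihood F-test), on windows with at least 10 reads in 3 libraries, adjusted over all windows, at 0.05. The scripts were tested on simulated data. Alternatives were S. cerevisiae (TMM) scaling, TMM over S. pombe windows, no filter, DESeq2 1.42.0, 1 conversion, other distances, a replicate block, the compared groups alone, overlapping windows left out, and each library left out. Replicate letters did not pair libraries: correlations of same-letter deviations ran from -0.098 to 0.136.

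The members, lists and tests were chosen with earlier results of these data known. Named genes are, by rule, the 10 most lowered and up to 10 most raised in new RNA in RDY73, up to 4 in each direction elsewhere, the 8 highest levels, up to 2 of each family, SIR2, SIR3, SIR4 and RAP1, without overlapping or multimapped windows in the first 2 parts. In those 2 parts the values of the compared groups also had to be free of overlap, except in the strain difference of the IAA effect. Others are named where a count or sequence needs them. Genes of the chromosome ends, labelled shares and the TTACTAA motif were chosen after their values were seen. Identities came from global alignment with Biopython 1.88.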

Additional observations from a re-analysis of the deposited data

Results flagged for a closer look

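The IAA effect on new RNA differed between the strains, by the interaction test of edgeR, for 27 of the 53 tested subtelomeric genes, each with a lower value in RDY73. Over all windows 74.2% were lower. The genes named by the rule were YER186C with a log2 difference of -4.37, IRC4 with -3.65, RMD6 with -3.07 and AAD3, whose fitted -4.26 is not used as a size. All 4 met the read minimum only with RDY234 libraries counted, so their differences are not independent of that filter. AAD3 has labelled reads in RDY73 in DMSO replicate C only, and its difference was 0.23 without that library. With S. cerevisiae scaling none of these 4 passed the test, at adjusted p of 0.086 for YER186C, 0.236 for AAD3, 0.255 for IRC4 and 0.231 for RMD6 by edgeR.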

How the results depend on the processing

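With scaling to S. cerevisiae reads, 1 gene was lower and 13 higher in new RNA after IAA in RDY73, 1 lower and 10 higher in the strain difference of that effect, 15 lower and 34 higher in total RNA after IAA in RDY73, 1 lower with 4tU in RDY73, and 6 lower and 18 higher between the strains. It turned the sign of ADH6 (0.94), CHA1 (0.89), DLD3 (0.90) and YML131W (0.87) in new RNA, and of ADH6 (0.70), CHA1 (0.68), DLD3 (0.75), HYR1 (0.60), IMD2 (0.90), MAL12 (0.85) and YML131W (0.80) in total RNA. With at least 1 conversion 82 genes were tested: 52 fell and 1, AAD6, rose in new RNA in RDY73, and 42 and 1 differed between the strains. The shares of all windows at that setting are not given here, so these counts cannot be set against the fall of most windows. Fitting the compared groups alone gave 18 lower of 23 tested in new RNA in RDY73, 1 lower with 4tU in RDY73 and 2 higher with 4tU in RDY234.

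A limit of 10 kb gave 5 lower in new RNA in RDY73, 4 lower in its strain difference, 13 lower in total RNA, 1 and 0 higher with 4tU in RDY73 and RDY234, and 19 lower and 2 higher between the strains. A limit of 30 kb gave 103, 81 and 158 lower in the first 3 and 156 between the strains. Both limits use the main fits. There 83.9% of all windows were lower in new RNA in RDY73, 74.2% in its strain difference and 77.9% in total RNA. Between the strains 77.5% were lower and 2.21% higher. With 4tU 0.508% of all windows were higher in RDY73 and 0.393% in RDY234. Keeping the multimapped windows and named genes in gave 1 higher in total RNA after IAA in RDY73 and 1 lower in RDY234. Leaving out 1 library at a time gave 0 to 2 higher in new RNA in RDY73, 0 to 1 in the strain difference, 0 to 2 higher in total RNA in RDY73, 2 to 3 higher with 4tU in RDY73 and 2 to 3 in RDY234. The AAD3 difference ran from -4.89 to 0.23, the latter without RDY73 DMSO replicate C, which holds all its labelled reads in RDY73. The cause of the other changes was not tested. Under the replicate block 2 genes were higher with 4tU in RDY234, and no other count of calls moved by over 1.5 times; the libraries share only a letter.

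Depth limited the description: 178 of the 231 genes had too few labelled reads to be tested for new RNA, and 108 too few reads for total RNA.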
